A study of Rattus norvegicus with 16 samples.

Results

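The epidermal growth factor (EGF) family ligands and the ErbB receptors were followed in the left ventricle (LV) of rats with volume overload from an aortocaval fistula (ACF), a surgical opening between the abdominal aorta and the inferior vena cava. The set held 10 genes, chosen by their annotated symbols: the 7 ligand genes Tgfa, Hbegf, Areg, Ereg, Btc, Egf and Nrg1, and the 3 receptor genes Egfr, Erbb2 and Erbb4. They were read by 20 of the 31042 probe sets analysed, 10 of the 14217 genes with an unambiguous symbol. Adult male Sprague-Dawley rats gave 4 LV samples at each of 8, 16 and 24 weeks after creation of the ACF and 4 control samples, with 1 array per rat. The study placed compensated hypertrophy at 8 weeks and heart failure at 16 weeks, and rats whose fistula was later closed were not analysed here. The labels call the controls baseline, the methods describe sham-operated controls, and no label gives the controls a time, so age and time after ACF cannot be told apart. The descriptions of the 24-week samples run over 24, 25, 26 and 27 weeks.

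EGF family ligands are made as membrane-anchored precursors and are released by cell surface proteases, chiefly ADAM17 and ADAM10. Tgfa, Areg and Egf bind the EGF receptor (Egfr), Hbegf, Btc and Ereg bind both Egfr and Erbb4, and Nrg1 binds Erbb3 and Erbb4, whereas Erbb2 has no ligand of its own and pairs with the other receptors. In the heart, neuregulin from endothelial cells acting on cardiomyocyte Erbb4 and Erbb2 is known for its part in ventricular development and in maintaining adult myocardium, and heparin-binding EGF acting on Egfr is known for hypertrophic signalling.

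The promoters of the 3 genes whose arrays at 16 weeks all lay above the control arrays are shown so that their letters can be set beside the levels that follow. RefSeq on GRCr8 gave a window of 250 bases before the annotated start for 8 of the 10 genes. Each is printed 5′ to 3′ on the strand of its gene, with capitals marking matches on either strand to the GC box GGGCGG, whose reverse complement is CCGCCC. Capitals also mark the TATA box, TATAAA, and the cAMP response element, TGACGTCA.
Tgfa, chr4:120175469-120175718, plus strand: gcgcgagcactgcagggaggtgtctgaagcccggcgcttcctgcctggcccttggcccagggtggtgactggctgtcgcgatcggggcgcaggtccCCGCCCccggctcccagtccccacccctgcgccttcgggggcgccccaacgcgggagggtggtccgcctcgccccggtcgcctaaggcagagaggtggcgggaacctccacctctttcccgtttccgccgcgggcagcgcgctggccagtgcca
Egfr, chr14:95378376-95378625, plus strand: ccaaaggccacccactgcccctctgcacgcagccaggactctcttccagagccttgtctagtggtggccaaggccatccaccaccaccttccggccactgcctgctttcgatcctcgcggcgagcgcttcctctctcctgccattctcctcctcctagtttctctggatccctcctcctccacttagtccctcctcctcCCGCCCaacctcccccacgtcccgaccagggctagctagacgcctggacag
Areg, chr14:17265642-17265891, minus strand: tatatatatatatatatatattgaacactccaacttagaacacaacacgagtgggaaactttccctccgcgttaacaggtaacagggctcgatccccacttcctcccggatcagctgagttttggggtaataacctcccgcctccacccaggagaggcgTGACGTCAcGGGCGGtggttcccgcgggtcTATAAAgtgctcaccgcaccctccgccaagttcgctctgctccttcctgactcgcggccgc
The Tgfa window was 74.4% G and C and held a GC box at position -154, counted back from the start to the first printed base of the match. The Egfr window was 63.6% G and C, with a GC box at -51, against a median of 51.2% G and C over all windows. The Areg window was 54.4% G and C and held a cAMP response element, a GC box and a TATA box at -91, -82 and -61. A GC box stood in 6 of the 8 windows, against 30.5% of 33469 rat windows, and the cAMP response element of Areg in 1 of 8, against 1.59%. TATAAA stood in 1 of 8 windows and 12.9% of all, and the AP-1 element TGANTCA, which overlaps none of the matches in capitals, in 0 of 8 and 6.34% of all. These matches describe letters only.

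Levels are log2 intensities after robust multiarray averaging, less the median of their array, so that 0 is the median probe set of an array and a difference of 1 is a doubling. For genes read more than once, the probe set brightest over the 16 arrays stands for the gene. Probe sets differ in how well they bind, so levels were compared between arrays and never between genes. The deposited array medians fell into a higher level of 6.13 to 6.17 (9 arrays: 2 at 16 weeks, 3 at 8 weeks and all 4 controls) and a lower level of 5.92 to 5.96 (7 arrays: replicate 2 at 8 weeks, replicates 3 and 4 at 16 weeks and all 4 at 24 weeks). Centring removed the offset, but the 24-week and control groups share no level and in that comparison level and group cannot be told apart. The family was selected with these levels known, so its differences are given as a description, with limma's standard error (SE) and without p-values. A probe set is called where limma's Benjamini-Hochberg adjusted p over all 31042 probe sets lay under 0.05.

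At 16 weeks, the ligand gene Tgfa and the receptor gene Egfr were higher than in control and were called, and the other 8 genes were not. At 8 and 24 weeks Tgfa was again the member with the largest difference, and no member was called. Thus 2 of 10 members were called at 16 weeks, beside 5.47% of all probe sets. At 8 weeks the count was 0 of 10, beside 0.0322% of all probe sets, and at 24 weeks 0 of 10, beside 0.438%. At an unadjusted p under 0.05 in limma, the counts were 2, 4 and 1 of 10 at 8, 16 and 24 weeks, beside 6.2%, 19.5% and 15.4% of all probe sets, and the methods' t-test with adjustment called 0 at each time. The median log2 difference over the 10 genes was 0.01, 0.08 and 0.03 at 8, 16 and 24 weeks, close to the -0.01, -0.01 and -0.00 of all probe sets. All 3 comparisons share the same 4 control arrays.

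**Figure D1:**
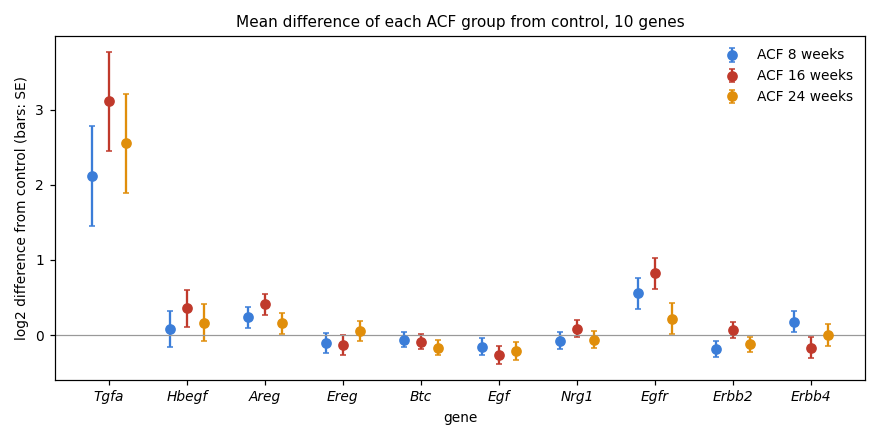
Mean log2 difference of each ACF group from control for the 10 genes, with bars of 1 SE from limma (n = 4 arrays per group). Tgfa stands 2.12, 3.11 and 2.55 above control at 8, 16 and 24 weeks, Egfr peaks at 0.82 at 16 weeks, and the other 8 genes lie between -0.27 and 0.41.

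Tgfa encodes transforming growth factor alpha, a ligand of Egfr. Its brightest probe set, 1381449_s_at, read 2.56, 1.03, -0.49 and 0.53 at 8 weeks, 0.25, 3.35, 3.02 and 0.98 at 16 weeks, and 1.42, 2.31, 0.30 and 1.34 at 24 weeks, against -1.39, -1.92, -1.0 and -0.54 in control (replicates 1 to 4). Every ACF array lay above every control array, with the nearest gap between -0.49 in replicate 3 at 8 weeks and -0.54 in control replicate 4. The spread within the ACF groups was wide, and at 16 weeks replicates 2 and 3 stood well above replicates 1 and 4. Group means were 0.91 ± 1.27 at 8 weeks, 1.90 ± 1.52 at 16 weeks and 1.34 ± 0.82 at 24 weeks, against -1.21 ± 0.58 in control (SD, n = 4 each). The differences from control were 2.12, 3.11 and 2.55 (SE 0.66 for each), which are 4.34-fold, 8.63-fold and 5.87-fold. In order of the mean, control was lowest, followed by 8, 24 and 16 weeks, and the 3 ACF groups overlapped each other. At 16 weeks the mean was 0.99 above that at 8 weeks, and at 24 weeks 0.56 below that at 16 weeks, both with an SE of 0.66.

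The other Tgfa probe set, 1387450_at, showed the same arrays high and low. It read 1.03, -0.07, -1.47 and -0.77 at 8 weeks, -1.09, 2.10, 2.24 and -0.45 at 16 weeks, and 0.28, 0.86, -0.94 and 0.13 at 24 weeks, against -1.60, -1.98, -1.75 and -1.42 in control. Here replicate 3 at 8 weeks lay within the control range, and all arrays at 16 and 24 weeks lay above it. The differences were 1.37, 2.39 and 1.77 (SE 0.64), of which the one at 16 weeks was called. Over the 16 arrays the pair of probe sets had a Pearson r of 0.97, and the same r of 0.97 after each group's mean was taken off. Both come from the same arrays and may share transcripts, so they are not independent readings of the gene.

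Egfr encodes the receptor of Tgfa, Areg and Egf. Its brightest probe set, 1370830_at, read 0.54, 0.01, 0.22 and 1.05 at 8 weeks, 0.57, 0.84, 0.78 and 0.72 at 16 weeks, and -0.11, 0.28, 0.57 and -0.26 at 24 weeks, against -0.47, -0.15, 0.12 and 0.12 in control. The 16-week arrays were tight and all above control, whereas those at 8 and 24 weeks overlapped the control range. Group means were 0.46 ± 0.45 at 8 weeks, 0.73 ± 0.12 at 16 weeks and 0.12 ± 0.38 at 24 weeks, against -0.10 ± 0.28 in control (SD, n = 4 each). The differences from control were 0.55, 0.82 and 0.22 (SE 0.21 for each), or 1.47-fold, 1.77-fold and 1.16-fold. The means ran from control through 24 and 8 weeks to 16 weeks, and each neighbour in that order overlapped the next. At 24 weeks the mean was 0.61 below that at 16 weeks (SE 0.21), which was not called, and the ranges met at 0.57.

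The call of Egfr at 16 weeks rested on few arrays. It was lost without control replicate 1 (difference 0.70) or 2, and without replicate 2 or 3 at 16 weeks, while the difference stayed between 0.70 and 0.89 whichever array was left out. On the deposited values without centring it was 0.70 and was not called. The probe set 1381145_at read -0.30, 0.61, 0.05 and -0.11 at 16 weeks, against -0.96, -0.45, -0.44 and -0.14 in control, a difference of 0.56 (SE 0.28) with overlapping ranges. Its differences at 8 and 24 weeks were 0.38 and 0.09, and none of the 3 was called. The dimmest Egfr probe set, 1385413_at, differed by -0.03, 0.00 and 0.13 at 8, 16 and 24 weeks (SE 0.13), and averaging the probe sets of the gene gave 0.46 at 16 weeks. The 3 Egfr probe sets thus differed in the size of their difference, and the call held for the brightest alone.

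**Figure D2:**
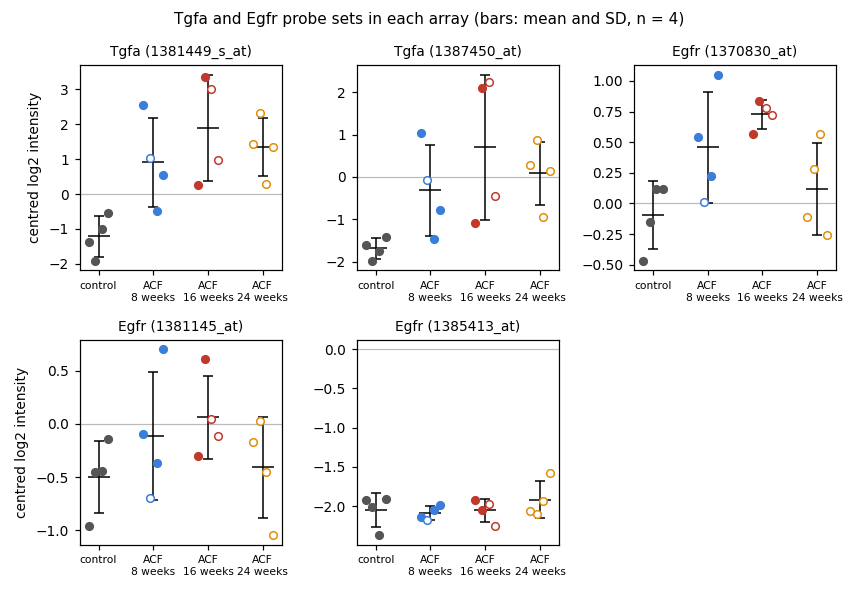
Centred log2 intensity of the Tgfa and Egfr probe sets in each of the 16 arrays, by weeks after ACF with control at the left, with group means and SD (n = 4). Filled points are arrays at the higher level of the deposited medians and open points those at the lower level, and the grey line at 0 is the array median. All ACF arrays of Tgfa 1381449_s_at lie above control, and the 16-week arrays of Egfr 1370830_at lie between 0.57 and 0.84.

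Areg encodes amphiregulin, another ligand of Egfr. It read -2.47, -2.45, -2.38 and -2.23 at 8 weeks, -1.90, -2.38, -2.29 and -2.28 at 16 weeks, and -2.63, -2.00, -2.45 and -2.77 at 24 weeks, against -2.65, -2.51, -2.71 and -2.61 in control. All arrays at 8 and 16 weeks lay above control, and those at 24 weeks spanned it. The differences were 0.24, 0.41 and 0.16 (SE 0.14), none called, and the one at 24 weeks was -0.05 without centring. The probe set was dim, below the array median in all 16 arrays. Without replicate 2 at 24 weeks the 16-week difference was called.

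Members whose 4 ACF arrays all lay above or all below control were counted beside the share of all probe sets with such a gap. At 8 weeks Tgfa and Areg lay above control, 2 of 10 beside 2.74% of probe sets above, and at 16 weeks Tgfa, Areg and Egfr, 3 of 10 beside 7.65%. At 24 weeks only Tgfa lay above, 1 of 10 beside 4.32%, and Btc lay below, 1 of 10 beside 4.51%. Because the genes were chosen on these levels, nothing is read from those shares.

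Hbegf, which encodes heparin-binding EGF-like growth factor, split the 16-week group. It read -0.90, -0.64, -0.76 and -1.07 at 8 weeks, -0.25, 0.19, -1.14 and -1.08 at 16 weeks, and -0.75, -0.39, -0.56 and -1.33 at 24 weeks, against -0.88, -0.85, -1.12 and -0.85 in control. Replicates 1 and 2 at 16 weeks were the highest of all arrays and replicates 3 and 4 lay among or just below the control arrays. The high pair belongs to the higher array level and the low pair to the lower level. The high pair also had the higher macrophage and fibroblast marker levels, given below. The part of the array level and of cell content in this split was not tested. Over all arrays the differences were 0.08, 0.35 and 0.17 (SE 0.24), none called, and the one at 24 weeks was -0.04 without centring. Among the arrays at the higher level alone, the 16-week difference was 0.89 and was called, with 2 arrays against 4.

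When the array level entered the fit, 2 member differences moved by more than 1 SD, those of Hbegf and Nrg1 at 24 weeks (Nrg1 -0.19 in place of -0.06). With the level as a block the differences of Hbegf were 0.21, 0.60 and 0.66 at 8, 16 and 24 weeks. For Tgfa the block gave 2.07, 3.02 and 2.37, and for Egfr 0.61, 0.94 and 0.44. Only the 8- and 16-week groups hold arrays of both levels, so the level effect was estimated from them alone. The 24-week values with the block carry that effect over and are no separate estimate. On the higher-level arrays alone, the 16-week differences were 3.01 for Tgfa and 0.80 for Egfr, as large as on all arrays or nearly so, though neither was then called.

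None of the other 4 ligand genes was called at any time. By their brightest probe sets, all 4 lay below the array median in all 16 arrays. Ereg (-1.82 on average) and Egf (-1.68) were the dimmest of them. Ereg, encoding epiregulin, differed by -0.11, -0.14 and 0.05 at 8, 16 and 24 weeks (SE 0.13). Egf, encoding epidermal growth factor itself, differed by -0.15, -0.27 and -0.21 (SE 0.12), with overlapping ranges at each time. Btc, encoding betacellulin, read -0.62, -0.73, -0.92 and -0.69 at 24 weeks, against -0.56, -0.57, -0.57 and -0.59 in control. All 4 of those arrays lay below control, whose own spread was only 0.01 (SD), and the difference was -0.17 (SE 0.10). At 8 and 16 weeks Btc differed by -0.06 and -0.09. Areg, Btc and Ereg lie on the same chromosome, 14, as does Egfr.

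Nrg1, encoding neuregulin 1, was read by 8 probe sets, of which none was called at any time. The brightest, 1370616_at, ran from -0.57 to -0.03 at 8 weeks, from -0.31 to -0.02 at 16 weeks and from -0.45 to -0.10 at 24 weeks, against -0.28 to -0.10 in control. Its differences were -0.08, 0.08 and -0.06 (SE 0.11). Over the 8 probe sets the differences ran from -0.11 to 0.05 at 8 weeks, from -0.29 to 0.08 at 16 weeks and from -0.34 to 0.27 at 24 weeks. At 24 weeks all arrays of 2 of them, 1369783_a_at (-0.22) and 1371212_at (-0.34), lay below control.

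The receptors Erbb2 and Erbb4, through which neuregulin signals in cardiomyocytes, were not called at any time. Erbb2 read -0.24, -0.19, -0.18 and 0.00 at 8 weeks, -0.01, 0.29, 0.04 and 0.06 at 16 weeks, and -0.22, -0.24, 0.20 and -0.12 at 24 weeks, against 0.04, 0.11, 0.04 and -0.07 in control. Its differences from control were -0.18, 0.07 and -0.12 (SE 0.11), and its 16-week mean was 0.25 above that at 8 weeks. Erbb4 read -1.17, -1.70, -1.38 and -1.18 at 8 weeks, -1.77, -1.76, -1.85 and -1.43 at 16 weeks, and -1.28, -1.90, -1.44 and -1.52 at 24 weeks, against -1.35, -1.61, -1.68 and -1.52 in control. Its differences were 0.18, -0.17 and 0.00 (SE 0.14), and its 16-week mean was 0.35 below that at 8 weeks. The ranges of both genes overlapped in each of these comparisons. On the deposited values without centring, the 16-week differences of Erbb2 (-0.05) and Nrg1 (-0.03) and the 24-week differences of Hbegf (-0.04), Areg (-0.05), Ereg (-0.15) and Erbb4 (-0.21) had the opposite sign, and none of these 6 was called on either scale.

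Between the ACF groups no member was called. This was 0 of 10 for 16 against 8 weeks, beside 0% of all probe sets, and 0 of 10 for 24 against 16 weeks, beside 0.0129%. At an unadjusted p under 0.05 in limma, 2 and 1 of the 10 passed, against 7.07% and 7.81% of all probe sets.

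**Figure D3:**
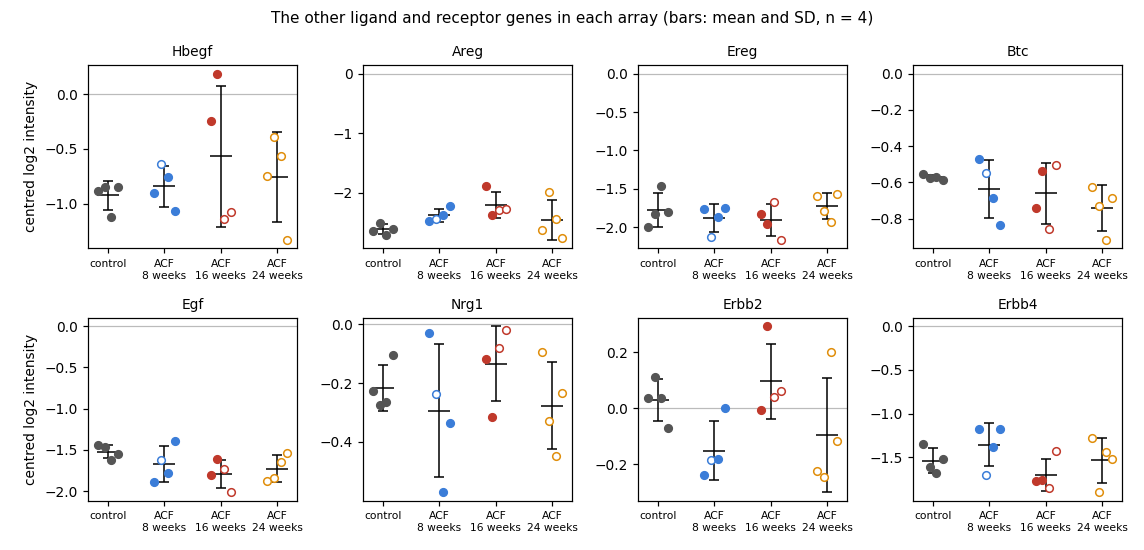
Centred log2 intensity of the brightest probe set of the other 8 genes in each array, by weeks after ACF with control at the left, with group means and SD (n = 4). Filled points are arrays at the higher level of the deposited medians, open points those at the lower level. Hbegf splits at 16 weeks into 2 filled points at -0.25 and 0.19 and 2 open points near -1.1, and Areg lies above control at 8 and 16 weeks.

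The genes whose pattern over the 16 arrays was most like that of a member were found by Pearson r over 14207 other genes. For Tgfa they were Edem2 (0.86), Dazap2 (0.84) and Islr (0.82). For Egfr they were Mast4 (0.95), Arsi (0.89) and Clock (0.87), and for Areg they were Eloa (0.90), Tmf1 (0.90) and Znrf2 (0.89). After the group means were taken off, r was 0.68 for Tgfa with Edem2, 0.92 for Egfr with Mast4 and 0.90 for Areg with Eloa. These are the top of a long list over arrays that share groups and array levels, and are given as a description. Tgfa and Egfr, a ligand and its receptor, had an r of 0.52 over the 16 arrays and of 0.14 within groups by their brightest probe sets. Over all pairs of their probe sets the within-group r ran from -0.13 to 0.38.

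Around the receptors, 77 of 93 listed pathway genes were measured. These lists too were chosen with earlier results of these data known. The genes named from them were picked by their calls or values, so their adjusted p are a description and no independent support. After centring, 0 of 77 were called at 8 weeks, 6 at 16 weeks and 2 at 24 weeks, all higher, beside 0.0322%, 5.47% and 0.438% of all probe sets. On the deposited values 2 were called higher and 3 lower at 16 weeks, and 2 higher and 3 lower at 24 weeks. Of all probe sets, 462 were called higher and 1259 lower at 16 weeks, and 145 higher and 3694 lower at 24 weeks. The split of the calls thus changed with the centring. Quantile and cyclic loess normalization each gave 6 higher and 1 lower at 16 weeks. They called 1043 and 1190 of all probe sets higher, and 844 and 724 lower. At an unadjusted p under 0.05 in limma, 10, 25 and 22 of the 77 passed at 8, 16 and 24 weeks, beside 6.2%, 19.5% and 15.4% of all probe sets. Their median log2 difference was 0.09, 0.11 and 0.12. Without replicate 1 at 16 weeks 2 were called at that time, beside 836 of all probe sets. Without control replicate 1 or 2 there were 3, beside 743 and 928 of all probe sets. The 24-week count was 7 without replicate 4 of that group, and 0 in 8 of the 16 fits that left out 1 array, among them those without control replicate 1, 2 or 3, replicate 3 at 8 weeks, replicate 2 at 16 weeks, or replicate 1, 2 or 3 at 24 weeks.

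Of the 3 measured relatives of the members, Nrg2 and Nrg4 are ligands and Erbb3 is the receptor that pairs with Erbb2. None was called, and their differences lay between -0.36 (Erbb3 at 24 weeks) and -0.01 (Nrg4 at 8 weeks). The 11 measured genes of ligand shedding and maturation also gave no call, beside 0.0322%, 5.47% and 0.438% of all probe sets at 8, 16 and 24 weeks. Adam17, in mouse cells the main protease that releases Tgfa, Areg and Hbegf, averaged 3.29 ± 0.17 at 8 weeks, 3.25 ± 0.26 at 16 weeks and 2.86 ± 0.20 at 24 weeks, against 2.89 ± 0.13 in control (SD, n = 4 each). All of its 8-week arrays lay above control, with a difference of 0.41 (SE 0.13, limma adjusted p = 0.485). Adam10, which in mouse cells releases Egf and Btc, differed by 0.08, 0.08 and -0.02 (SE 0.13).

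Among 7 partners of the receptors in the membrane, 1 was called at 16 weeks, beside 5.47% of all probe sets. This was Erbin, a scaffold that binds Erbb2, which averaged 3.46 ± 0.17, against 2.88 ± 0.16 in control (SD, n = 4 each). The difference was 0.58 (SE 0.14, limma adjusted p = 0.0265). Among 23 adaptors and kinases, 2 were called at 16 weeks, beside the same 5.47%. Stat3, a transcription factor that receptor signalling activates, read 4.00, 4.17, 3.39 and 3.39 at 16 weeks, against 2.67, 2.86, 2.74 and 3.25 in control, a difference of 0.85 (SE 0.19, limma adjusted p = 0.0141). All 4 of its 16-week arrays exceeded control, and like Hbegf it was highest in replicates 1 and 2. Crk, an adaptor protein, averaged 4.12 ± 0.17 at 16 weeks, against 3.71 ± 0.11 in control, a difference of 0.41 (SE 0.11, limma adjusted p = 0.0341).

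Of 13 feedback inhibitors, 1 was called at 16 weeks and another at 24 weeks, beside 5.47% and 0.438% of all probe sets. Cblb, a ubiquitin ligase that marks active receptors for removal, averaged 2.66 ± 0.40 at 16 weeks, against 1.99 ± 0.26 in control, a difference of 0.67 (SE 0.16, limma adjusted p = 0.0248). Dusp6, the phosphatase that switches off ERK and is itself induced by it, read 3.63, 3.11, 3.46 and 2.89 at 8 weeks, 2.91, 2.80, 3.21 and 2.71 at 16 weeks and 3.21, 3.32, 3.43 and 3.12 at 24 weeks, against 2.09, 2.64, 2.49 and 2.73 in control. The arrays at 8 and 24 weeks all lay above control, whereas those at 16 weeks overlapped it. The differences from control were 0.78, 0.42 and 0.78 (SE 0.16) in time order, with limma adjusted p of 0.107, 0.156 and 0.0452. The 24-week calls of Dusp6 and Myc were both lost in each of the 8 fits with a count of 0.

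The 20 genes that ERK signalling is known to induce had median differences of 0.21, 0.23 and 0.46 at 8, 16 and 24 weeks. Over all probe sets the medians were -0.01, -0.01 and -0.00. Of the 20, 16, 15 and 19 lay above 0, a level set by the centring. At 24 weeks array level and group cannot be told apart, and without centring the median of all probe sets was -0.21. The calls were 0, 2 and 1, beside 0.0322%, 5.47% and 0.438% of all probe sets. Myc, the growth-promoting transcription factor, read 1.56, 1.70, 3.07 and 1.12 at 16 weeks and 1.59, 2.22, 2.14 and 1.81 at 24 weeks, against 0.32, 0.08, 0.19 and 0.89 in control. All of those ACF arrays lay above control. The difference was 1.49 at 16 weeks (SE 0.34, limma adjusted p = 0.0157) and 1.56 at 24 weeks (SE 0.34, limma adjusted p = 0.0495). Plaur, the urokinase receptor, averaged -0.17 ± 0.15 at 16 weeks, against -0.71 ± 0.13 in control, a difference of 0.54 (SE 0.11, limma adjusted p = 0.0121). Fos, an immediate early gene, differed by 2.74, 2.76 and 2.47 with an SE of 0.96 and was not called at any time.

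**Figure D4:**
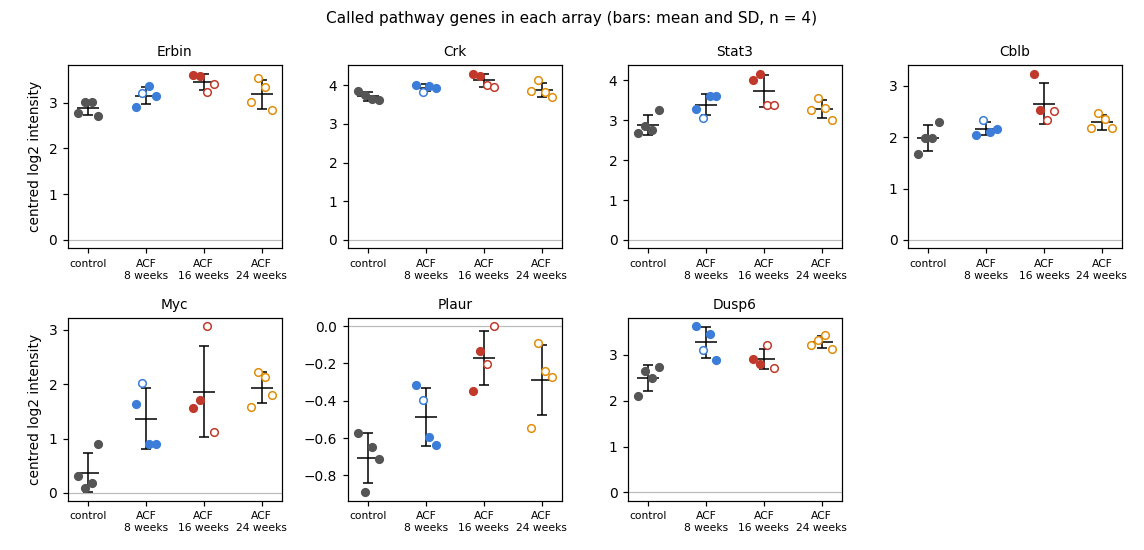
Centred log2 intensity of the 7 called pathway genes in each array, by weeks after ACF with control at the left, with group means and SD (n = 4). Filled points are arrays at the higher level of the deposited medians, open points those at the lower level. Stat3 is above control in all 4 arrays at 16 weeks, and Dusp6 is above control at 8 and 24 weeks.

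The RNA came from powdered LV tissue holding many cell types, and fewer cells of a type cannot be told apart from less RNA per cell. The 11 measured cardiomyocyte markers all lay above the array median in every group and none was called, and their summed level (intensities on a linear scale relative to the array median) ran from 1850 to 2320. Of 12 measured macrophage markers, 1, 10 and 4 were called higher at 8, 16 and 24 weeks, beside 0.029%, 3.62% and 0.271% of all probe sets called higher. Their summed level ran from 101 to 137 at 8 weeks, from 131 to 247 at 16 weeks and from 76.8 to 128 at 24 weeks, against 55.4 to 71.9 in control. The lowest of them, Itgam, averaged 0.09 on the centred log2 scale, and none was below the array median on average in any ACF group. Of 9 fibroblast markers, 0, 5 and 1 were called higher, beside the same shares, and their summed level ran from 241 to 311, from 283 to 360 and from 246 to 320 at 8, 16 and 24 weeks, against 204 to 267 in control. The 3 measured atrial markers varied between arrays of every group, with summed levels from 3.44 to 163 at 8 weeks, from 4.46 to 26.8 at 16 weeks and from 6.13 to 175 at 24 weeks, against 2.67 to 98.6 in control.

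The macrophage and fibroblast levels moved with the groups in which Tgfa, Egfr and Areg were high, and their part in those differences was not tested. Over the 16 arrays, which share groups and array levels, Pearson r with the log2 of the summed macrophage level was 0.58 for Tgfa, 0.69 for Egfr and 0.76 for Areg. After the group means were taken off it was -0.31, 0.22 and 0.58 for the same genes. With the summed fibroblast level r was 0.58, 0.66 and 0.75, and within groups -0.02, 0.34 and 0.57. Of the marker lists, the highest within-group r of Egfr was with the 8 endothelial markers (0.59). For Tgfa, the within-group r largest in size was with the 5 adipocyte markers (-0.51, and -0.60 over all arrays). Within the 16-week group, the array with the highest macrophage level, replicate 1 at 247, had the lowest Tgfa of its group (0.25). Its Egfr was the lowest in a narrow range of 0.57 to 0.84, and its Areg was the highest (-1.90). At 8 weeks, replicate 3 had the highest macrophage level (137) and the lowest Tgfa (-0.49), with Egfr (0.22) and Areg (-2.38) inside their group ranges. At 24 weeks, replicate 3 had the highest macrophage level (128) and the lowest Tgfa (0.30). In control it was the other way, and replicate 4 had the highest macrophage level (71.9) and the highest Tgfa (-0.54). These readings of single arrays are a description. For Hbegf, r within groups was 0.64 with the macrophage level, 0.66 with the fibroblast level and 0.63 with the 2 Schwann cell markers. Its high pair at 16 weeks, replicates 1 and 2, had macrophage levels of 247 and 172, against 131 and 154 in replicates 3 and 4. The fibroblast levels were 360 and 352, against 290 and 283.

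**Figure D5:**
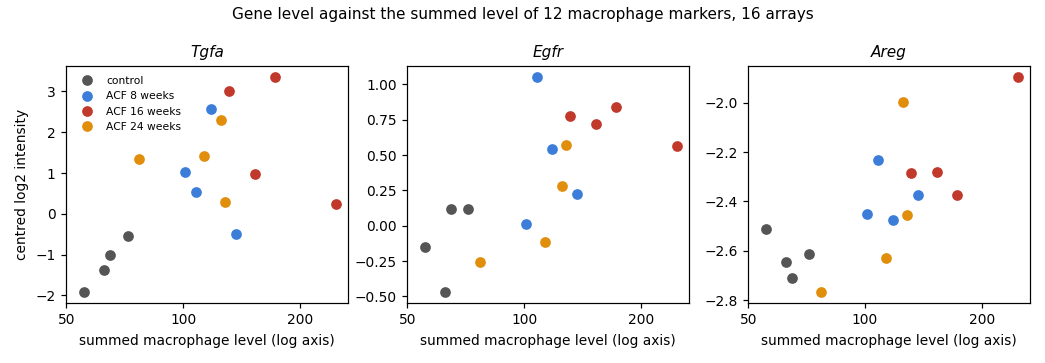
Centred log2 intensity of Tgfa, Egfr and Areg against the summed level of 12 macrophage markers (log axis, intensity relative to the array median) in the 16 arrays, coloured by group. The control arrays lie at the left, at 55.4 to 71.9. The 16-week array at 247 has the lowest Tgfa of its group, above all control arrays, and the highest Areg of all arrays.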

How the data were processed

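LV RNA from 16 rats was hybridised to Affymetrix rat expression arrays, 1 array per rat. The authors deposited log2 intensities per probe set after robust multiarray averaging in Affymetrix Expression Console 1.2, and no scanner files were used here. The probe set names are not those of the array named in the methods (Rat Gene ST), and probe sets were named through the platform annotation. Of 31099 deposited probe sets, 57 controls were left out. Of the remaining 31042, 20826 had 1 symbol, 436 several and 9780 none. Each array was centred on its median. A model with 1 mean per group was fitted in limma 3.58.1 (R 4.3.3) to all probe sets with 12 residual degrees of freedom, with Benjamini-Hochberg adjustment and a threshold of 0.05. It was first tested on simulated data. No pair of arrays was identical (highest r 0.995). Whether the rats of a group shared a batch is not given, so p-values measure the spread between these samples. With 4 arrays per group, precision is limited by their number.

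The members, the pathway and marker lists and the tests were chosen with earlier results of these data known. The named genes were all members, the pathway genes called in a comparison (up to 4 per list) and, for the 3 members with the largest differences, the 3 genes of highest Pearson r, whereas the relatives, Adam17, Adam10 and Fos were named after their values were seen. Alternatives were deposited values without centring, quantile and cyclic loess normalization, trended variance, array weights, array level as a block, higher-level arrays only, a replicate block, 1 probe set or the mean per gene, a filter on dim probe sets, only the 8 arrays compared, the methods' t-test, the study's threshold (1.5-fold, unadjusted p under 0.05) and leaving out each array. The t-test was used with Benjamini-Hochberg adjustment, and the study's threshold was put on limma's p, so neither repeats the study's own procedure.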

Additional observations from a re-analysis of the deposited data

Results flagged for a closer look

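Of 40 gene and group combinations examined for a single array standing apart, 1 met the criterion, and chance alone gives about 1 in 20. Hbegf in control replicate 3 read -1.12 on the centred log2 scale, while the other control arrays read -0.85 to -0.88, so its gap to them took 0.864 of the range of the group. The group mean was -0.92. All 4 control arrays belong to the higher array level.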

How the results depend on the processing

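The 16-week count of called members was 2. It was 1 on the deposited values and with the mean of the probe sets of a gene (Tgfa), and 1 on the higher-level arrays (Hbegf). With the methods' t-test after Benjamini-Hochberg adjustment it was 0, and it ran from 1 to 3 when 1 array was left out. At 8 weeks the count of 0 was 1 under the study's threshold (Tgfa). At 24 weeks the count of 0 was 2 on the deposited values (Tgfa higher, Btc lower) and 1 with array weights, with only the 8 arrays compared and under the study's threshold (Tgfa each time). For 16 against 8 weeks it was 1 on the higher-level arrays (Hbegf), and for 24 against 16 weeks 1 under the study's threshold (Egfr lower). Of all 31042 probe sets, 224 and 335 were called in those cases. At 16 weeks 1721 were called on the deposited values, and 1192 genes with the mean of the probe sets. At 24 weeks 150 probe sets were called with only the 8 arrays compared. The 8-week count of 0 pathway genes was 1 with array weights (Dusp6) and 6 under the study's threshold. Of all probe sets, 165 and 368 were called in those settings, against 10 in the main fit. The 16-week count of 6 pathway genes was 11 with array weights, 10 on the higher-level arrays and 0 with the t-test. It was 2 to 9 when 1 array was left out. Of all probe sets, 1698 were called in the main fit, and 2347, 2405 and 88 in those settings. Leaving out 1 array gave 743 to 2103. The 24-week count of 2 pathway genes was 5 on the deposited values and with array weights, and 9 under the study's threshold. It was 1 with trended variance and with the mean of the probe sets. It was 0 with quantile, cyclic loess, array level as a block, the replicate block and the t-test. Leaving out 1 array gave 0 to 7. Of all probe sets, 136 were called in the main fit and 3839 on the deposited values. There were 866 with array weights, 131 with trended variance and 753 under the study's threshold. Quantile gave 131, cyclic loess 123, the array level block 4, the replicate block 134 and the t-test 0. With the mean of the probe sets 124 genes were called, and leaving out 1 array gave 4 to 873 probe sets. Same-numbered arrays had a mean r of deviations of 0.02 over 24 pairs, against -0.005 over 72 pairs of different number. No pairing by number was seen, which cannot exclude one. The replicate block left 2 members called at 16 weeks and changed no other member count.

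The Tgfa difference at 16 weeks ran from 2.63 to 3.66 when 1 array was left out, called each time. Of 1440 alternative member differences, 14 moved by more than 1 SD, 7 of them on the deposited values, and 0 called differences changed sign. On the deposited values the median difference of all probe sets was -0.06, -0.13 and -0.21 at 8, 16 and 24 weeks, and at 24 weeks 3839 probe sets were called, 145 higher and 3694 lower, against 84 higher and 52 lower after centring. The causes were not tested. At 16 weeks 1698 probe sets were called, 88 with the t-test and 743 without control replicate 1. No fit on the higher-level arrays alone could be made at 24 weeks, where there is no such array. Without detection calls, a small change, or none, of a dim probe set such as that of Areg, Ereg, Egf or Erbb4 cannot be told from background.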
